A study of Rattus norvegicus with 23 samples.

Results

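miR-21, its sister strand miR-21* and miR-31 were followed across rat mammary carcinomas and normal mammary tissue. They were taken by name (rno-miR-21, rno-miR-21* and rno-miR-31) from the array design, where they are 3 of 350 rat miRNAs, and all 3 were among the 199 that passed the filter on dim signals. Small RNA was measured on 23 one-colour Agilent arrays from female Sprague-Dawley rats, an outbred laboratory strain. The groups were 8 mammary carcinomas labelled spontaneous, 8 labelled radiation-induced and 7 normal mammary tissues. The radiation dose, the ages, any treatment of the rats that gave the normal tissue and whether those 7 tissues came from separate animals are not given in the sources used here. The carcinoma codes name 16 different animals, and the p-values measure the spread between these samples. All are pieces of bulk tissue, in which fewer cells of a type and less RNA per cell cannot be told apart.

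A miRNA is cut from a hairpin whose arms can each give a short mature strand. The strand bound by an Argonaute protein pairs with messenger RNAs chiefly through its seed, bases 2 to 8, and represses them. miR-21 is known as an oncogenic miRNA that represses the tumour suppressor Pdcd4 and is raised in many human carcinomas, breast included. miR-21* is the opposite arm of its hairpin and is usually the scarcer strand. miR-31 is known in human breast cancer cells as an inhibitor of metastasis, whereas in other epithelia, such as human and mouse skin and colon, it has been described as growth-promoting.

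The mature sequences are shown because they define what was measured and which seeds are involved. They are RefSeq's for assembly GRCr8, 5′ to 3′, with the seed in capitals.
miR-21 (now miR-21-5p): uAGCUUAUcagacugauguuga
miR-21* (now miR-21-3p): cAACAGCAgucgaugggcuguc
miR-31 (now miR-31a-5p): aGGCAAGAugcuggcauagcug
The seeds differ between the 3 members, and none of the other mature rat miRNAs in the RefSeq table, which holds 693 names, shares one of them. miR-21 lies at chr10:71902653-71902674 and miR-21* at chr10:71902615-71902636, both on the minus strand in the gene Mir21. In the annotation its nearest gene on the higher-coordinate side is Vmp1, which encodes an autophagy protein. miR-31 lies at chr5:108714906-108714927 on the minus strand in the gene Mir31, inside the long non-coding RNA gene LOC130062807.

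The hairpins show how the strands are related, with the mature arms in capitals.
Mir21: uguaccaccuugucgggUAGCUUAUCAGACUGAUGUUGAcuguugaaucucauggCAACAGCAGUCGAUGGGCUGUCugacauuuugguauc
Mir31: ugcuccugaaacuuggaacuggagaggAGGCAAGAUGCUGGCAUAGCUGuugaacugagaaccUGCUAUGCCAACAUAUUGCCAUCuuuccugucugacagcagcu
The Mir21 hairpin has 92 bases, with miR-21 at bases 18 to 39 and miR-21* at bases 56 to 77, so both members come from a single precursor. In the Mir31 hairpin of 106 bases only the arm at bases 28 to 49 is the miR-31 of the array. A further hairpin, Mir3554, is annotated on the other strand at the same place, and 19 bases of its mature product miR-31b pair end to end with miR-31a-5p. No probe of the array carries the name miR-31b.

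Values are processed signals scaled between arrays and given as log2, with a lower limit, called the floor, at 3.30 on that scale. Before scaling, the spontaneous arrays were the dimmest, with a 75th percentile of 335 to 936 intensity units against 729 to 2032 on the radiation and 960 to 2494 on the normal arrays. They also detected the fewest miRNAs, 154 to 174 against 169 to 206 and 180 to 212. The arrays lie on 4 slides. Normal tissue is on every slide, spontaneous carcinomas are on slides 1, 2 and 4, and radiation-induced ones on slides 3 and 4. Spontaneous carcinoma 1 and radiation carcinoma 3 stood apart. They had miR-200c, an epithelial miRNA, at the floor, where the other 21 samples lay between 9.93 and 13.20. Of the 11 epithelial marker miRNAs, 8 were at the floor in the first and 10 in the second, and none was in the other samples. These tissues went against the epithelial character of a mammary carcinoma, and differences that move with them are given with and without them.

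In these samples neither miR-21 nor miR-31 passed the main test against normal tissue in either carcinoma group. The label of carcinoma-linked miRNAs was thus not borne out by that test, which does not show equal levels. In the radiation-induced carcinomas 3 of 18 alternative settings called miR-21 and 1 of 17 called miR-31. miR-21* passed the main test in the radiation-induced carcinomas only, in a call that 9 of 16 alternative settings lost. Of the 9 differences (3 members in 3 comparisons), 1 passed the test, in which limma was fitted to all 199 miRNAs and p-values were adjusted by Benjamini-Hochberg with a threshold of 0.05. Against normal tissue, 25.1% of all tested miRNAs passed in the radiation-induced carcinomas (16.6% higher and 8.54% lower). In the spontaneous carcinomas 40.7% passed (26.1% higher and 14.6% lower). Between the carcinoma groups 18.1% passed (8.04% higher and 10.1% lower in radiation-induced). The members' counts, 1 of 3, 0 of 3 and 0 of 3 in the same order, are no result about them as a group, the first being near the share over all tested miRNAs. The medians of the differences over all tested miRNAs were 0.14, 0.23 and -0.025 on the log2 scale in the same order.

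**Figure D1:**
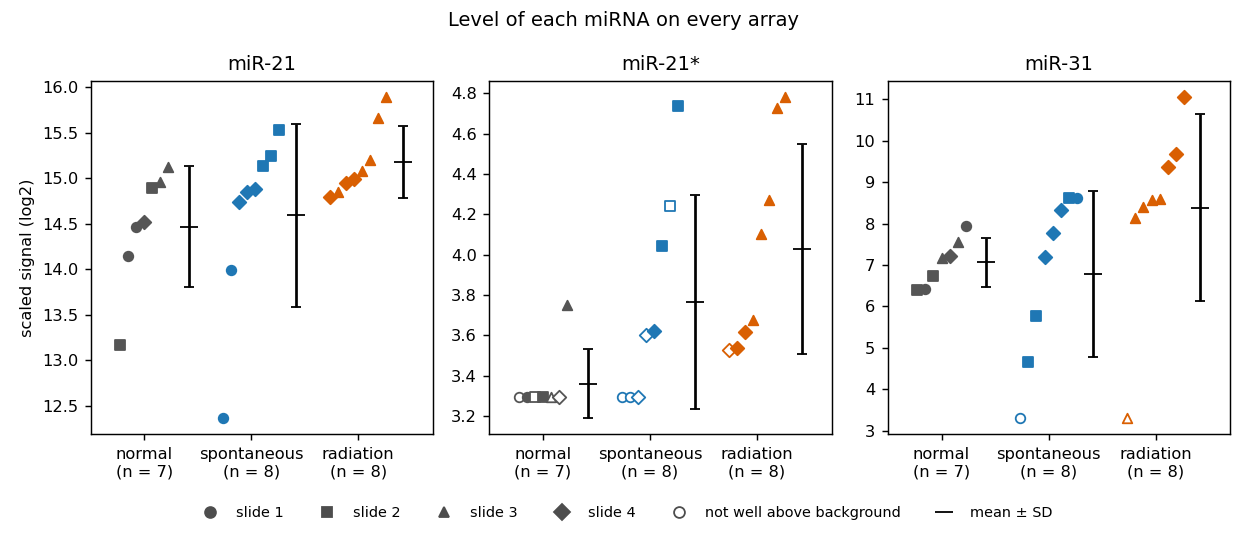
Scaled signal (log2) of miR-21, miR-21* and miR-31 on every array, by group, with a separate axis for each miRNA. Marker shapes give the slide, hollow markers were not well above background, and the bars are mean ± SD. Radiation miR-21 sits between 14.80 and 15.89, 6 of 7 normal miR-21* values lie at the floor of 3.30, and miR-31 lies at the floor in 1 carcinoma of each group.

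miR-21 was well above background on all 23 arrays. Its log2 signal ran from 14.80 to 15.89 in the radiation-induced carcinomas, with a median of 15.04 and a mean of 15.18 ± 0.40 (SD, n = 8). In the spontaneous carcinomas it ran from 12.36 to 15.53 with a median of 14.87 and a mean of 14.59 ± 1.01 (SD, n = 8). Normal tissue gave 13.17 to 15.13, a median of 14.52 and a mean of 14.47 ± 0.66 (SD, n = 7). The radiation-induced carcinomas were the most even group, all 8 lay above the normal mean, and 3 lay above every normal sample. The low end of the spontaneous range was made by carcinoma 1, at 12.36, and carcinoma 2, at 13.99, both on slide 1, while the other 6 lay at 14.74 or more. In the order of group means, radiation stood first and spontaneous and normal followed, and no neighbours in that order passed the test.

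The miR-21 difference between radiation-induced carcinomas and normal tissue was 0.71 ± 0.37 on the log2 scale (SE), a 1.64-fold higher signal with a 95% interval of 0.963 to 2.78 (limma adjusted p = 0.163). The exact two-sided permutation test of the same 15 samples gave an unadjusted p of 0.0135, 1 of 9 such tests, while limma, whose spread for miR-21 includes the wider spontaneous group, gave an unadjusted p of 0.067. Fitted to these groups alone, limma gave the same difference an adjusted p of 0.0471. Without the carcinomas that had miR-200c at the floor the difference was 0.76 with an adjusted p of 0.0257. Within slides it was 0.29 on slide 3 and 0.40 on slide 4, and 0.31 with slide as a block (adjusted p = 0.643), so the size within slides was less than that over all arrays.

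The spontaneous carcinomas differed from normal tissue in miR-21 by 0.13 ± 0.37 on the log2 scale, with an interval for the fold of 0.641 to 1.85 (limma adjusted p = 0.835, exact permutation p = 0.784). Without scaling between arrays this difference was -1.23 and passed the test in the lower direction, with an adjusted p of 0.00787, on arrays where the median of all tested miRNAs was at -0.98. Without spontaneous carcinoma 1 the scaled difference was 0.44 (adjusted p = 0.197). Within slides 1, 2 and 4 it was -1.13, 1.28 and 0.31, none of which passed. Relative to the medians of all tested miRNAs, miR-21 stood at -0.25 unscaled and at -0.11 in the scaled data. Between the carcinoma groups miR-21 was 1.50-fold higher in radiation-induced carcinomas, with an interval of 0.899 to 2.51 (difference 0.59 ± 0.36, adjusted p = 0.256, exact permutation p = 0.134). It rested in large part on spontaneous carcinoma 1: without that sample the difference was 0.27, without both carcinomas at the miR-200c floor 0.31, and with slide as a block 0.10.

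miR-21*, the other arm of the hairpin, was dim. Its log2 signal ran from 3.53 to 4.78 in the radiation-induced carcinomas, with a median of 3.89 and a mean of 4.03 ± 0.52 (SD, n = 8), and it was well above background on 7 of 8 arrays. Spontaneous carcinomas gave 3.30 to 4.73, a median of 3.61 and a mean of 3.77 ± 0.53 (SD, n = 8), with 3 of 8 arrays well above background and 3 at the floor. In normal tissue 6 of 7 values were at the floor and 1 was at 3.75, with 3 of 7 arrays well above background (2 of them at the floor), for a mean of 3.36 ± 0.17 (SD, n = 7). All 8 radiation-induced carcinomas lay above the normal mean, a count that the floor largely sets, as 6 of 7 normal values are tied there. Of the 8, 4 lay above every normal sample. The group ranges overlapped through normal sample 5. By mean the order was radiation, spontaneous and normal, and the neighbours in it did not pass the test.

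Signal of miR-21* was 1.59-fold higher in radiation-induced carcinomas than in normal tissue, with a 95% interval of 1.13 to 2.23 (difference 0.67 ± 0.24, SE, limma adjusted p = 0.0452, exact permutation p = 0.0042). As most normal values lie at the floor, the fold understates a difference below it. The call was near the threshold: it was lost in 10 of the 23 fits that left out a sample, with adjusted p up to 0.092, and with slide as a block (0.64, adjusted p = 0.059). It was also lost with the mean over all its probes (0.23), with the percentile taken over all probes (0.58, adjusted p = 0.0664) and without scaling (0.60). The difference was 0.79 within slide 3 and 0.27 within slide 4. Only 1 of the 4 probes for miR-21*, which have 5 spots each, was well above background on more than 5 arrays (13 of 23), and 2 were never so. The remaining probe, well above background on 5 arrays, gave 0.27 for radiation minus normal, 0.088 for spontaneous minus normal and 0.18 for radiation minus spontaneous.

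The spontaneous carcinomas were 0.41 ± 0.24 above normal tissue in miR-21* (limma adjusted p = 0.173, exact permutation p = 0.076), and with slide as a block the difference was 0.53 and passed (adjusted p = 0.0411). On all arrays without a block, the radiation-induced carcinomas were 0.26 ± 0.23 above the spontaneous ones (adjusted p = 0.424). The lowest signal that counted as well above background was 12.0 to 29.7 in scaled units on spontaneous arrays, against 3.74 to 14.1 on radiation and 3.90 to 9.56 on normal arrays. Low signals of miR-21* were therefore less measurable in the spontaneous group.

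Both arms of Mir21 varied together among the radiation-induced carcinomas, and by rank among the spontaneous ones. The arms share the scaling of their arrays, and 3 of 8 spontaneous miR-21* values were tied at the floor. In the radiation-induced group Pearson's r between miR-21 and miR-21* was 0.93 (n = 8, exact permutation p = 0.00146, adjusted p = 0.0102 over 7 relations) and Spearman's rho was 0.857 (exact p = 0.0107, adjusted p = 0.0375). In the spontaneous group r was 0.647 (n = 8, exact permutation p = 0.071, adjusted p = 0.248) and rho was 0.952 (exact p = 0.00149, adjusted p = 0.0104). Without the 2 samples farthest from the miR-21 median r was 0.779 and 0.819. Slide moved with both miRNAs: on slide 3 the radiation-induced carcinomas had means of 15.34 for miR-21 and 4.31 for miR-21*, and on slide 4 of 14.92 and 3.56. No slide holds 6 carcinomas of a group, so r was not computed within slides, and the part of slide in the relation was not tested. In normal tissue 6 of 7 miR-21* values were tied at the floor and no correlation was computed.

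The log2 ratio of miR-21* to miR-21 within each array, which depends on scaling where miR-21* is at the floor, differed between groups by -0.042 (radiation against normal), 0.28 (spontaneous against normal) and -0.32 (radiation against spontaneous). Exact permutation p-values were 0.883, 0.486 and 0.316 (adjusted p = 0.703 or more over 6 ratio tests). Without spontaneous carcinoma 1 the spontaneous-against-normal and radiation-against-spontaneous values were 0.029 and -0.071. Unequal change of the arms was thus not detected, with most normal values of miR-21* at the floor. With signals left below the floor where both were positive, the radiation-against-normal ratio was 0.53 (unadjusted exact permutation p = 0.0014).

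Among the carcinomas miR-31 was the most variable member. Its log2 signal ran from 3.30, the floor, to 11.05 in the radiation-induced carcinomas, with a median of 8.58 and a mean of 8.38 ± 2.26 (SD, n = 8). Spontaneous carcinomas gave 3.30 to 8.62, a median of 7.48 and a mean of 6.78 ± 2.00 (SD, n = 8). In normal tissue it ran over a narrower range, from 6.39 to 7.94 with a median of 7.17 and a mean of 7.06 ± 0.58 (SD, n = 7). Over the 16 carcinomas its SD was 2.22, and 7 of the 199 tested miRNAs had a larger one (the median SD was 0.73). Over the 7 normal samples 28 of the 199 had a larger SD than miR-31 (median 0.30).

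The radiation-induced carcinomas split around normal tissue in miR-31. Of the 8, 7 lay above every normal sample, from 8.13 to 11.05, and 1, radiation carcinoma 3, lay below all of them, at the floor. Of the 8 spontaneous carcinomas, 3 lay above every normal sample (8.32 to 8.62) and 3 below (3.30, 4.67 and 5.78). Both carcinomas with miR-31 at the floor are those with miR-200c at the floor. Spontaneous carcinomas 3 and 4, the other low ones, had miR-200c at 12.91 and 13.20, and none of their 11 epithelial markers was at the floor. Low miR-31 was therefore found both with the epithelial miRNAs at the floor and with them present.

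By mean the order for miR-31 was radiation, normal and spontaneous, and over all samples no comparison passed the test. The radiation-induced carcinomas were 1.32 ± 0.89 above normal tissue (2.50-fold, interval 0.7 to 8.96, limma adjusted p = 0.284, exact permutation p = 0.161). The spontaneous ones were at -0.28 ± 0.89 (adjusted p = 0.841, exact permutation p = 0.733). Radiation-induced were 1.60 ± 0.86 above spontaneous carcinomas (3.04-fold, interval 0.886 to 10.4, adjusted p = 0.188, exact permutation p = 0.154).

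Without the carcinomas that had miR-200c at the floor, miR-31 was higher in radiation-induced carcinomas than in normal tissue by 2.05 (limma adjusted p = 0.00473) and than in spontaneous ones by 1.83 (adjusted p = 0.0256), and the spontaneous difference from normal was 0.22 (adjusted p = 0.776). Leaving out radiation carcinoma 3 alone gave 2.05 (adjusted p = 0.025) and 2.33 (adjusted p = 0.0234). These samples were set apart by miRNAs whose level goes with that of miR-31, so their removal also raises the carcinoma means of miR-31 by construction.

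Slide moved with the miR-31 level. The 3 radiation-induced carcinomas on slide 4 lay at 9.36 to 11.05, above all 5 on slide 3, of which 4 lay at 8.13 to 8.59. Radiation minus normal was 0.028 within slide 3, which holds the carcinoma at the floor, and 2.82 within slide 4, where 1 normal sample stands against 3 carcinomas. Radiation minus spontaneous was 2.27 within slide 4. Spontaneous minus normal was -1.22, -0.20 and 0.55 within slides 1, 2 and 4. With slide as a block the values were 1.03, 1.75 and -0.72 for radiation minus normal, radiation minus spontaneous and spontaneous minus normal. None of these within-slide or blocked differences passed limma's test, and the part of slide in the level was not tested.

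**Figure D2:**
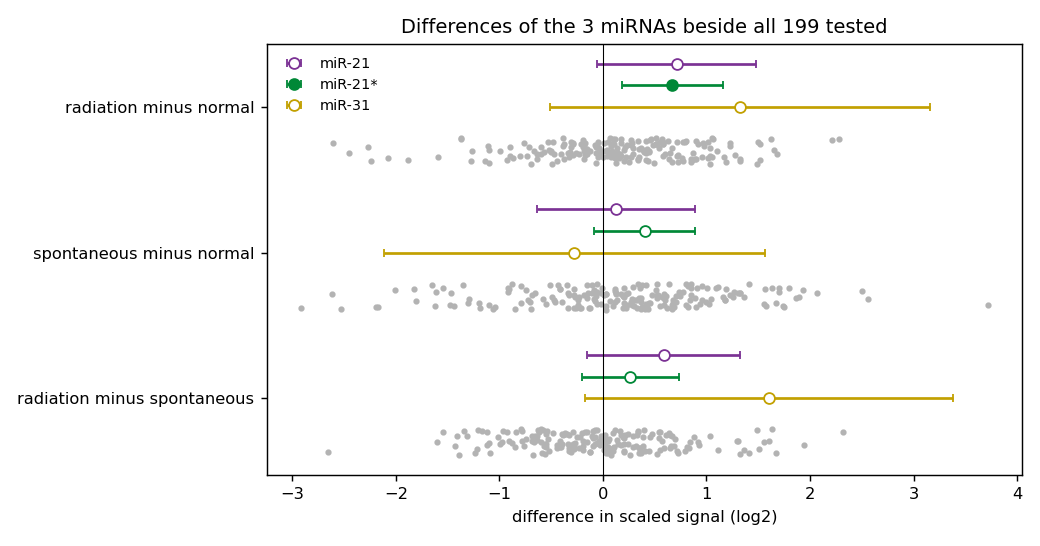
Differences between groups in scaled signal (log2) for miR-21, miR-21* and miR-31, with 95% intervals from limma, above the differences of all 199 tested miRNAs (grey points, spread vertically at random). The filled marker passed the test: miR-21* in radiation minus normal, at 0.67. The miR-31 intervals are the widest and include 0.

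Both probes for miR-31, with 10 spots each on an array, gave like differences. The brighter probe, used above, gave 1.32, -0.28 and 1.60, and the other 1.43, -0.15 and 1.58, for radiation minus normal, spontaneous minus normal and radiation minus spontaneous. For miR-21 the second probe gave 0.88, 0.32 and 0.56 in the same order. No spot of any member was saturated.

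miR-31 was compared with miR-21 on the same arrays. The log2 ratio of miR-31 to miR-21 differed by 0.61 (radiation against normal), -0.40 (spontaneous against normal) and 1.02 (radiation against spontaneous), with exact permutation p-values of 0.540, 0.586 and 0.332 (adjusted p = 0.703 in each). On the 21 arrays with both well above background, an alternative chosen after seeing the data, the first was 1.29 (7 against 7 samples, unadjusted exact permutation p = 0.0478) and the third 1.52 (unadjusted p = 0.0973). Within groups, miR-21 and miR-31 had r of 0.504 (spontaneous), 0.072 (radiation-induced) and 0.086 (normal tissue), with rho of 0.048, -0.238 and 0 (adjusted exact permutation p of 0.457 or more for r and 0.98 or more for rho). miR-21* and miR-31 had r of -0.197 in spontaneous and -0.064 in radiation-induced carcinomas, with rho of -0.171 and -0.571 (adjusted p = 0.353 or more). Without the 2 farthest samples these 5 values of r were -0.15, 0.225, -0.373, -0.071 and -0.115.

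The miRNA whose pattern was most like that of miR-31 was miR-205, known as a miRNA of basal and myoepithelial cells in the mammary gland. Pearson's r was 0.906 over the 23 arrays, 0.935 over the 16 carcinomas and 0.942 over the 14 carcinomas with miR-200c above the floor. As the highest value among all tested miRNAs it is high by choice, and the points share the scaling of their arrays; on unscaled signals it was 0.916. The next over the 23 arrays were miR-200a (0.775), miR-429 (0.772), miR-200b (0.768), all of the epithelial miR-200 family, and miR-203 (0.714), a miRNA of stratified epithelium. Over the 16 carcinomas their r was 0.774, 0.765, 0.766 and 0.711, and over the 14 it was 0.308, 0.212, 0.255 and 0.357. Among carcinomas their likeness thus rested largely on the 2 with miR-200c at the floor. For miR-203, which was at 4.71 in spontaneous carcinoma 1, r was 0.513 over the 21 samples of all groups without those 2.

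Carcinoma by carcinoma, miR-205 was low where miR-31 was low. It was at the floor in spontaneous carcinoma 1 and at 6.33 in radiation carcinoma 3. In spontaneous carcinomas 3 and 4 it was at 7.72 and 7.56, below the lowest normal value of 9.22. The 3 radiation-induced carcinomas on slide 4, highest in miR-31, were also highest in miR-205, at 10.93 to 11.88. Within groups r was 0.917 in spontaneous carcinomas, 0.988 in radiation-induced carcinomas and 0.244 in normal tissue. Group means of miR-205 were 8.46 ± 2.34, 10.13 ± 1.68 and 9.51 ± 0.30 (SD, n = 8, 8 and 7, spontaneous, radiation and normal), and radiation minus spontaneous was 1.67 ± 0.81 (adjusted p = 0.142).

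**Figure D3:**
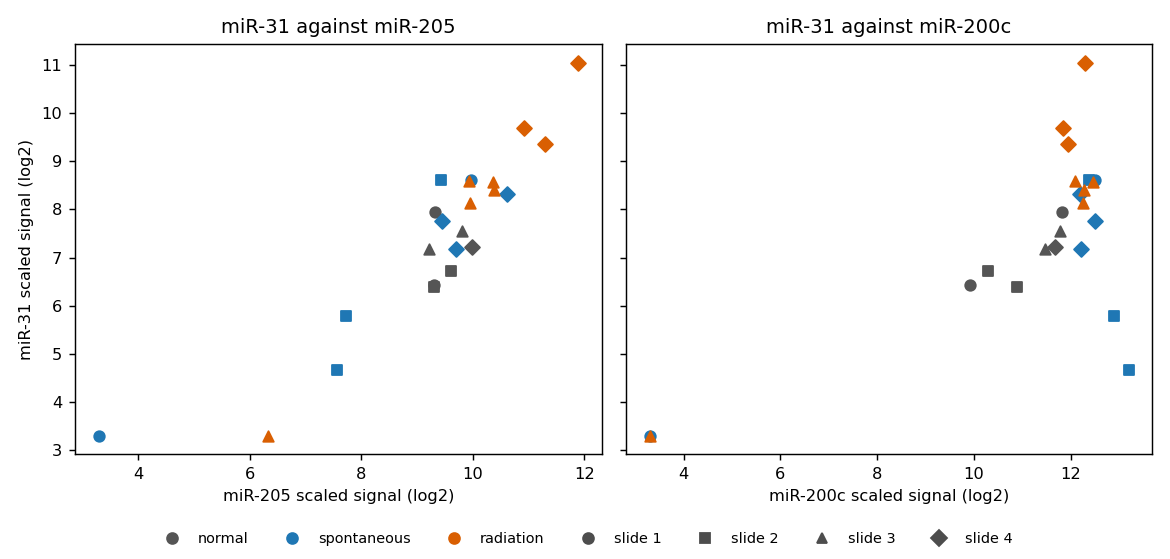
Scaled signal (log2) of miR-31 on every array against miR-205 (left) and miR-200c (right), coloured by group, with marker shape for the slide. Against miR-205 the points run along a line (r = 0.906 over 23 arrays). Against miR-200c the carcinomas at the floor lie apart at the lower left, and over the other 21 samples r is 0.142 (-0.845 in spontaneous and -0.216 in radiation carcinomas, 0.847 in normal tissue).

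For miR-21 the most alike were miR-34a (r = 0.789), a p53-induced miRNA, miR-185 (0.785), miR-142-5p (0.764) and miR-142-3p (0.756), both from a precursor found in blood cells, and miR-29b (0.659), which represses collagen genes. Over the 14 carcinomas with miR-200c above the floor r was 0.482, 0.255, 0.733, 0.729 and 0.556, highest for the pair from miR-142. Within groups the r of miR-21 with miR-142-3p was 0.932, 0.826 and 0.855 (spontaneous, radiation and normal), and that with miR-34a was 0.925, 0.0035 and 0.518. Without the carcinomas at the miR-200c floor, r in spontaneous and radiation-induced carcinomas was 0.798 and 0.805 for miR-142-3p. For miR-34a it was 0.531 and 0.205. miR-142-3p itself did not pass in any comparison; its group means were 9.73 ± 1.48, 9.97 ± 1.04 and 10.16 ± 0.48 (SD). Of the 6 leukocyte markers tested, the summed scaled signal ran from 541 to 4411 in spontaneous and 1470 to 7013 in radiation-induced carcinomas, and from 2412 to 5097 in normal tissue. Spontaneous carcinoma 1, lowest in miR-21, also had the lowest mean over these markers (5.75 on the log2 scale, with miR-142-5p at the floor), and the part of leukocytes in the miR-21 level was not tested.

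Other oncogenic miRNAs give the setting for these members. Against normal tissue, 8 of 18 tested rose and 1 fell in the radiation-induced carcinomas (median difference 1.00). In spontaneous carcinomas 10 were higher and 2 lower (median 1.30), and between carcinoma groups 3 were higher and 2 lower in radiation-induced (median -0.38). Over all tested miRNAs the shares higher and lower were 16.6% and 8.54%, 26.1% and 14.6%, and 8.04% and 10.1% in the same order. The counts of the list were not tested against these shares. miR-93, of the cell-cycle-linked miR-106b cluster, rose by 1.28 ± 0.25 in radiation-induced (adjusted p = 0.00099) and 2.07 ± 0.25 in spontaneous carcinomas (adjusted p = 2.5e-06), and miR-106b by 1.04 ± 0.23 and 1.57 ± 0.23. miR-18a, of the miR-17 cluster, rose by 2.56 ± 0.44 in spontaneous carcinomas (adjusted p = 0.00015). miR-135b rose by 2.28 ± 0.51 in radiation-induced carcinomas (adjusted p = 0.00285), and miR-221, which represses the cell-cycle inhibitor p27, by 1.05 ± 0.33. miR-10b, described in human breast cancer cells as promoting invasion, fell by 2.46 ± 0.37 in radiation-induced and fell by 2.53 ± 0.37 in spontaneous carcinomas. Between the carcinoma groups miR-135b (1.95 ± 0.49), miR-221 and miR-222 were higher in the radiation-induced ones, and miR-93 (-0.79 ± 0.24) and miR-18a (-1.39 ± 0.43) were lower. miR-155 was not on the array, and miR-9 did not pass the filter.

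Among 12 metastasis-linked miRNAs tested, the setting of miR-31, none was higher against normal tissue. In radiation-induced carcinomas 2 were lower (median difference 0.037), and in spontaneous carcinomas 4 were lower (median 0.17). Those in both groups were miR-10b and the endothelial miR-126 (-1.26 ± 0.34 and -1.65 ± 0.34), with miR-335 (-1.82 ± 0.69) and the inflammation-responsive miR-146a (-1.06 ± 0.42) in spontaneous carcinomas. Between the carcinoma groups none passed. The shares of all tested miRNAs higher and lower were 16.6% and 8.54% for radiation minus normal and 26.1% and 14.6% for spontaneous minus normal. For radiation minus spontaneous they were 8.04% and 10.1%, and the counts of the list were not tested against any of these. This list includes the miR-200 family, whose members are at the floor in the carcinomas named above.

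Of 8 inflammation-responsive miRNAs tested, 2 were higher in radiation-induced carcinomas than in normal tissue (median 0.45), miR-132 by 0.95 ± 0.34 and miR-221. In spontaneous carcinomas miR-212 was higher (0.96 ± 0.21), and miR-146a and the myeloid miR-223 (-1.35 ± 0.43) were lower (median 0.027). Between carcinomas miR-221 (1.11 ± 0.31) and miR-222 (1.31 ± 0.31) were higher and miR-212 (-0.67 ± 0.20) lower in radiation-induced (median 0.28). Over all tested miRNAs the shares higher and lower were 16.6% and 8.54%, 26.1% and 14.6%, and 8.04% and 10.1% in these comparisons. The counts of the list were not tested against those shares.

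Cell type markers are given as counts, which were not tested against the shares over all tested miRNAs. Of all tested, 16.6% were higher and 8.54% lower in radiation minus normal, and 26.1% and 14.6% in spontaneous minus normal. In radiation minus spontaneous the shares were 8.04% and 10.1%. None of the 11 epithelial markers passed in a comparison (medians 0.52, 0.41 and -0.27 for radiation minus normal, spontaneous minus normal and radiation minus spontaneous). These fits include spontaneous carcinoma 1 and radiation carcinoma 3, whose mean log2 levels over the 11 markers were 3.59 and 3.57. The other carcinomas lay at 9.68 to 10.51 in that mean, above every normal sample (7.70 to 9.46). As the 2 left out were set apart by these same markers, that separation is partly set by the choice, and it was not tested. Of 6 fibroblast and smooth muscle markers, 3 were lower in spontaneous carcinomas than in normal tissue (miR-199a-3p, miR-199a-5p and miR-214) and 2 higher in radiation-induced than in spontaneous carcinomas (miR-143 and miR-145). Of 6 leukocyte markers, 1 was lower in radiation-induced (miR-150) and 3 in spontaneous carcinomas (miR-150, miR-223 and miR-146a). Of 4 endothelial markers, 3 were lower in each carcinoma group than in normal tissue (miR-126, miR-126* and miR-139-5p). Of 4 striated muscle markers, 2 were lower in radiation-induced (miR-1 and miR-133b) and 2 in spontaneous carcinomas (miR-133b and miR-499), and 1, miR-499, was higher in radiation-induced than in spontaneous carcinomas. The mean log2 level of these 4 was 3.39 to 4.93 in the carcinomas and 3.93 to 6.17 in normal tissue. At least 1 of them was at the floor of 3.30 in every carcinoma, so the floor limits these differences. Of 5 adipose-enriched miRNAs, 2 were lower in radiation-induced (miR-193 and miR-365) and 1 in spontaneous carcinomas (miR-193). Neither of 2 erythroid markers passed. The part of these markers in the members' levels was not tested.

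How the arrays were scaled mattered for the sign of some differences. Radiation minus normal was above 0 for each member under all 7 ways of scaling or background correction. Relative to the median of all tested miRNAs it was 0.19 to 0.61 for miR-21, 0.26 to 0.81 for miR-21* and 0.96 to 1.18 for miR-31. Spontaneous minus normal in miR-21 was below 0 under 4 of them. Relative to the median it ran from -0.70 with normexp to -0.019 with total gene signal and -0.0061 with quantile normalization, the last 2 being close to no difference. miR-31 relative to the median was below 0 in spontaneous minus normal (-0.66 to -0.27) and above 0 in radiation minus spontaneous (1.32 to 1.67) under all 7. The split of calls over all miRNAs moved with scaling: unscaled, 4 were higher and 23 lower in radiation minus normal, 4 and 112 in spontaneous minus normal, and 99 and 0 in radiation minus spontaneous, against 33 and 17, 52 and 29, and 16 and 20 in the scaled data.

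**Figure D4:**
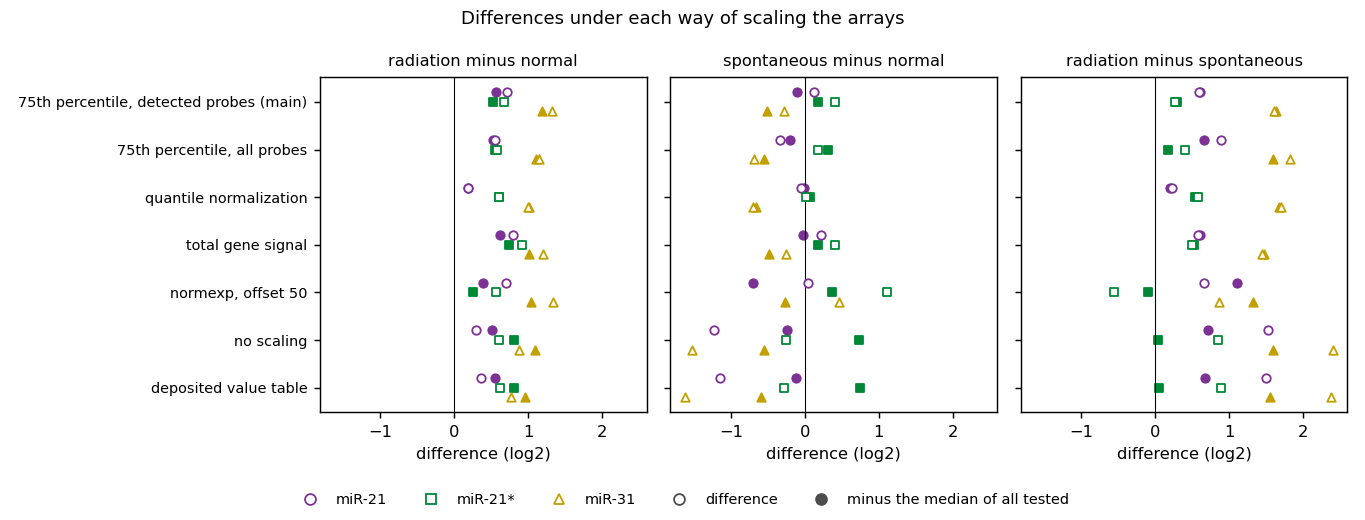
Differences (log2) of miR-21, miR-21* and miR-31 under 7 ways of scaling or background correction, as measured (hollow) and minus the median difference of all tested miRNAs (filled), in the 3 comparisons. Unscaled and deposited values move the spontaneous comparisons of miR-21 and miR-31 most, normexp moves those of miR-21* most, and the filled markers of miR-31 stay between 1.32 and 1.67 in radiation minus spontaneous.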

How the data were processed

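Small RNA of 23 rat mammary samples was measured on one-colour Agilent arrays. Per the file headers, the deposited scanner files hold spot intensities made with Agilent Feature Extraction 9.5.1.1 (build rn4), background-subtracted and not normalized between arrays, and flags (other values) that the authors' software gave each spot. The authors' deposited value table holds unnormalized intensity. Of its values above 5, 100% equalled the total gene signal within 1%.

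Control spots and outlier-marked spots were left out, and spots were averaged per probe. As 35.7% of probe values were detected, the signals of an array were divided by the 75th percentile of the 199 probes that every array detected. They were floored at 9.82, the typical lowest signal that a spot flag calls well above background (median of the arrays), which hides differences below it, and taken to log2. A probe was detected where over 50% of its spots were well above background. The brightest probe stood for a miRNA, and the 199 miRNAs detected on at least 7 arrays were tested with limma 3.58.1 in R 4.3.3, with 1 mean per group, Benjamini-Hochberg adjustment and a threshold of 0.05. limma was tested on simulated data. Exact permutation tests of differences and ratios were run in R, and those of correlations in Python with numpy 2.4.6 and scipy 1.17.1. The number of arrays limits the precision. Each slide was scanned once. Members and lists were chosen with earlier results of these data known. Named are the members, list members that passed and the 5 miRNAs most correlated with miR-21 and with miR-31. Single array values that these results turn on are also named. Where more than 4 of a list passed in a comparison, the 4 with the smallest p are named. Oncogenic miRNAs named beyond those 4 are miR-221 in radiation minus normal and miR-18a in radiation minus spontaneous. Marker lists are given by name only. Alternatives covered scaling, background (normexp, offset 50, on median signals), floor, filter, probe choice, slide, brightness, samples left out and groups fitted alone.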

Additional observations from a re-analysis of the deposited data

Results flagged for a closer look

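Among 15 sets of values of a group examined for a sample far from the rest, 3 stood out by Dixon's gap test, where chance marks about 1 in 20. The miR-21* level of 3.75 in normal sample 5 was above the other 6 normal samples, which were all at the floor of 3.30; with those tied at the floor, any value above it would stand out, so this says nothing beyond that. The miR-31 level of 3.30 in radiation carcinoma 3, at the floor, was below the nearest radiation-induced carcinoma at 8.13. The log2 ratio of miR-21* to miR-21 in spontaneous carcinoma 1, -9.07, was above the nearest at -10.52, with miR-21* at the floor and miR-21 at the group's lowest level of 12.36.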

How the results depend on the processing

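Values are log2 differences or numbers of miRNAs called of 50, 81 and 36 in the main analysis (radiation minus normal, spontaneous minus normal, radiation minus spontaneous, here RN, SN and RS). The cause of each change was not tested. Without scaling, RN and RS had 27 and 99 calls; miR-21* RN lost its call (0.60), miR-21 SN was -1.23 and miR-21* SN -0.25, and miR-21, miR-21* and miR-31 RS passed (1.52, 0.85 and 2.40). With the deposited value table the counts were 25 and 99, and the same values were 0.61, -1.15, -0.28, 1.50, 0.89 and 2.38. With the percentile over all probes miR-21* RN was 0.58 (adjusted p = 0.0664) and miR-21 SN -0.34. With quantile normalization miR-21 SN was -0.048 and RS had 20 calls. With normexp SN and RS had 144 and 104 calls, miR-21* SN passed (1.11), miR-31 SN was 0.47 and miR-21* RS passed at -0.55. The median of all tested miRNAs moved to -0.21, -0.98 and 0.81 unscaled and to 0.30, 0.74 and -0.45 with normexp. miR-21* RN lost its call with total gene signal (0.91), the mean over all probes (0.23), slide as a block (0.64), array brightness as a covariate (0.61) and within slides 3 (0.79) and 4 (0.27). Its adjusted p ran from 0.0137 to 0.665 over these alternatives. The raised floor left RN 28 and RS 19 calls, and the filter of all arrays 33 and 23. With slide as a block RN had 28 and RS 7 calls, and miR-21* SN passed (0.53). With brightness SN had 4 and RS 0 calls (limma; 16 at an unadjusted p under 0.05), and miR-21 SN was -0.52. Without the carcinomas lacking miR-200 RN had 95 calls, miR-21 RN (0.76), miR-31 RN (2.05) and miR-31 RS (1.83) passed, and miR-31 SN was 0.22. With M-coded spontaneous carcinomas only, RS had 10 calls, miR-21 RN passed (0.71) and miR-31 SN was 0.70. Within slides, limma called 0 for SN on slide 1 (33 at an unadjusted p under 0.05), 28 for SN on slide 2, 0 for RN on slides 3 (28) and 4 (18), 0 for SN on slide 4 (18) and 3 for RS on slide 4; miR-21 SN was -1.13 on slide 1, 1.28 on slide 2 and 0.31 on slide 4, and miR-31 SN 0.55 on slide 4. Fitted to 2 groups alone, RN had 76 and RS 0 calls (58 at an unadjusted p under 0.05), and miR-21 RN passed (0.71).

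For the ratio of miR-21* to miR-21, RN was 0.53 and RS 0.13 with no floor, RN was 0.13 with total gene signal, 0.26 with the deposited table, 0.49 within slide 3 and 0.22 where both were well above background, and -0.56 with the mean over all probes (unadjusted exact permutation p = 0.0149). SN of this ratio was 1.07 with normexp, 0.87 with the deposited table, -0.10 with the mean over all probes and -0.23 and -0.10 within slides 2 and 4, and RS was -1.21 with normexp. For the ratio of miR-31 to miR-21, SN was 0.43 with normexp and 0.24 within slide 4, and RN was -0.27 within slide 3 and 1.29 (unadjusted exact permutation p = 0.0478) without the carcinomas lacking miR-200, which are the arrays left where both were well above background.

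Leaving out each of the 23 samples in turn, the ranges were 0.50 to 0.82 for miR-21 RN (called without spontaneous carcinoma 1), -0.091 to 0.44 for miR-21 SN (below 0 without spontaneous carcinoma 5 or normal sample 3), 0.27 to 0.72 for miR-21 RS (lowest without spontaneous carcinoma 1), 0.56 to 0.74 for miR-21* RN, 0.94 to 2.05 for miR-31 RN, -0.54 to 0.22 for miR-31 SN (above 0 without spontaneous carcinoma 1 or 4) and 1.104 to 2.33 for miR-31 RS, the RN and RS values called without radiation carcinoma 3. The ratio of miR-21* to miR-21 RN ran from -0.16 to 0.16, SN from 0.029 to 0.49 and RS from -0.41 to -0.071 (both nearest 0 without spontaneous carcinoma 1), that of miR-31 to miR-21 RN from 0.20 to 1.29, and RS calls from 20 to 47, with 23 and 20 without radiation carcinomas 1 and 7. No value came from the filter of all arrays for miR-21* and miR-31, which it leaves out, or for miR-21* from the raised floor and within slide 1, where every array is at the floor. Signal over background limits miR-21*, well above it on 13 of 23 arrays.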
